A study of Mus musculus with 47 samples.

Results

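The transcriptome of the cortex was compared between ZT14, early in the dark phase, and ZT2, early in the light phase, in male C57BL/6J mice whose microglia had been depleted. The 8 libraries were those of the PLX5622 diet at these times, 4 mice at each and 1 cortex library per mouse, out of 47 libraries in the series. Zeitgeber time (ZT) counts the hours from lights on in a 12:12 h light and dark cycle, so that the groups lay 12 h apart. All 8 mice were on chow with 1200 ppm PLX5622, an inhibitor of the CSF1 receptor that microglia need to survive, for 10 days, and they were about 3 months old at harvest. The other 4 Zeitgeber times of this diet (16 libraries) entered the fit for its estimate of the spread. Mice on control chow at ZT14 (n = 3) and ZT2 (n = 4) were used to see where the depleted cortex differed. PLX5622 in chow reaches the whole body, and macrophages outside the brain carry the same receptor. The mice were housed 4 to a cage, and the sources used here do not say whether the mice of a group shared one.

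Nearly every cell keeps time with a loop of transcription factors. ARNTL (also called BMAL1) pairs with CLOCK or NPAS2 and switches on the Per and Cry genes, whose proteins then repress the pair, while the REV-ERB proteins encoded by Nr1d1 and Nr1d2 repress Arntl through ROR elements. The same factors drive output regulators such as DBP and TEF, which bind D-boxes. In the nocturnal mouse the time around lights off also brings waking, feeding and the daily peak of corticosterone, the hormone of the glucocorticoid receptor.

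The promoter sequences below are those of 4 clock genes and of Sgk1 because each holds a short motif that its pathway is known to use and all 5 genes differed between ZT2 and ZT14, and they were picked with these values in view. They are RefSeq windows on GRCm38.p6 from 250 bases before to 50 after an annotated start, 5′ to 3′ on the gene's strand, with the motifs in capitals. In Ciart at chr3:95882179-95882478 on the minus strand the capitals mark 3 E-boxes (CACGTG), the site of ARNTL pairs, which begin 116, 58 and 44 bases before the start.
Ciart: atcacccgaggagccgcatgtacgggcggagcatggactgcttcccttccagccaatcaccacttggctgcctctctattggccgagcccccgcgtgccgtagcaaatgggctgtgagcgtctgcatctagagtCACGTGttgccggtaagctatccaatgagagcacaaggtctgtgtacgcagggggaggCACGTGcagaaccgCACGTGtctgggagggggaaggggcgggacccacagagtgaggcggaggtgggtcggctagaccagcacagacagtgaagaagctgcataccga
In Per1 at chr11:69098699-69098998 on the plus strand they mark 1 E-box, which begins 166 bases before the start.
Per1: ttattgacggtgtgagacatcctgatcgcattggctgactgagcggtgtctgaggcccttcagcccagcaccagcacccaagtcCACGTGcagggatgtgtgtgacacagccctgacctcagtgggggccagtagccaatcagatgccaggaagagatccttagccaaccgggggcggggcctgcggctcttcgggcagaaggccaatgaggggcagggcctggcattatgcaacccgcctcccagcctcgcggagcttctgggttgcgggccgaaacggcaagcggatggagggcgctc
In Per3 at chr4:151044616-151044915 on the minus strand they mark 2 D-boxes (TTATGTAA), which begin 205 and 158 bases before the start.
Per3: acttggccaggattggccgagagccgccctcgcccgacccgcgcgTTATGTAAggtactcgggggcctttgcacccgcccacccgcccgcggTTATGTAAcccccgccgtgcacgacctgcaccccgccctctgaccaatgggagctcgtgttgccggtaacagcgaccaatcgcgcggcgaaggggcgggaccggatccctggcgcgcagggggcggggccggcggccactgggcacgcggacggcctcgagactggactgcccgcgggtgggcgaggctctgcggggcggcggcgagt
In Arntl at chr7:113207261-113207560 on the plus strand they mark a ROR element (TAGGTCA), the site of REV-ERB and ROR proteins, which begins 30 bases after the start, within the transcribed part.
Arntl: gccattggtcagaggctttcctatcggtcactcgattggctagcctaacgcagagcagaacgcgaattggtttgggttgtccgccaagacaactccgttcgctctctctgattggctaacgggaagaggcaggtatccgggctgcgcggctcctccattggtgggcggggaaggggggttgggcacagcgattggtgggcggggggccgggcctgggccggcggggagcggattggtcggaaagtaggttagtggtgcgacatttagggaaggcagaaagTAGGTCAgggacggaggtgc
In Sgk1 at chr10:21993640-21993939 on the plus strand they mark an E-box, which begins 246 bases before this start, and a palindromic glucocorticoid response element, which begins 189 bases before it. Sgk1 has 6 annotated starts in the table, and the other windows hold none of these motifs.
Sgk1: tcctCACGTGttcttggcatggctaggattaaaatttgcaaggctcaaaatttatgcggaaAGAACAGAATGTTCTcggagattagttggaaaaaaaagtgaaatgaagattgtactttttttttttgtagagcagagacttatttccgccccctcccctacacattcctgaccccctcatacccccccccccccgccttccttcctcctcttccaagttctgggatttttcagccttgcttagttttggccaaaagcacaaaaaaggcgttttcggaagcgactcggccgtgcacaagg

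Of the 14580 genes whose mean reached 1 TPM (transcript abundance scaled to the same total in every library), 101 differed between ZT14 and ZT2 in the depleted cortex (0.693%), by limma on log2(TPM + 1) with a Benjamini-Hochberg adjusted p under 0.05. Of these, 93 were higher at ZT14 (0.638%) and 8 were lower (0.0549%). The higher genes had log2 changes of 0.35 to 2.30 with a median of 0.67, and the lower genes of -0.85 to -0.45, whereas the median of all genes tested was 0.09. The 4 ZT14 values lay above all 4 ZT2 values in 852 genes (5.84%) and below them in 154 (1.06%), and 91 of the 93 higher genes and all 8 lower genes were among these. The depth did not separate the times: total counts were 1.90e+07 to 2.49e+07 at ZT2 and 1.93e+07 to 2.76e+07 at ZT14, and the difference of the means gave p = 0.83 in an exact two-sided permutation test. The mitochondrial share of the counts was 8.72% ± 0.548 at ZT2 and 7.73% ± 0.896 at ZT14 (SD, n = 4 each, exact permutation p = 0.171, with 0.0286 the smallest possible).

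**Figure D1:**
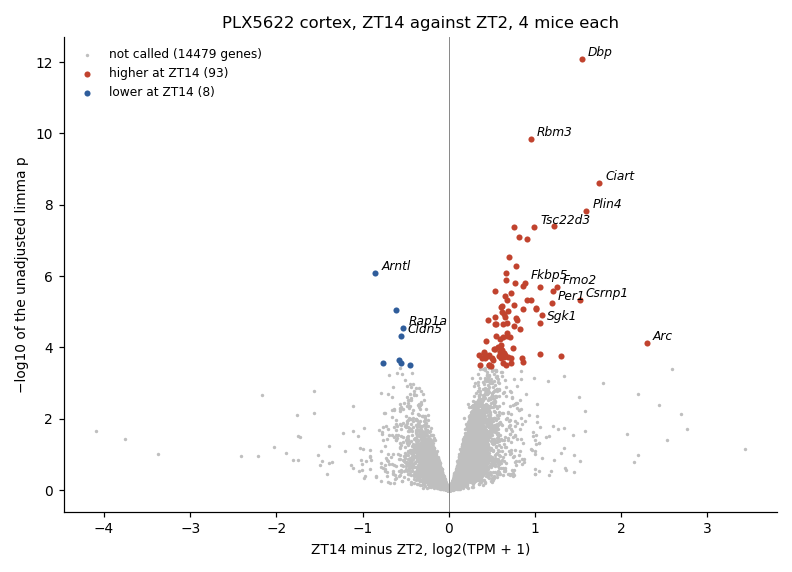
Log2 change from ZT2 to ZT14 in PLX5622 cortex (x axis, log2(TPM + 1)) against −log10 of the unadjusted limma p (y axis) for each of the 14580 genes. Red points are the 93 genes called higher at ZT14 and blue points the 8 called lower, with Dbp at the smallest p and Arc at the largest called change.

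The number of calls depended on the libraries and on the scaling. It was 62, 60 and 62 without replicate 1, 3 or 4 of ZT14, 77 to 107 without any other single library, and each of the 101 genes kept its direction in every fit that tested it. After median-of-ratios scaling, which brings the median of all genes to 0.001, 118 genes were called, of which 87 (73.7%) rather than 92.1% were higher, and edgeR on the counts called 199 genes with 70.9% higher.

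A pair of libraries stood apart by markers of neighbouring regions, which the dissection can carry along. In replicate 2 of ZT2, Pmch of the lateral hypothalamus was at 66.3 TPM against 1.69 to 7.37 in the other 3, and the striatal Ppp1r1b at 116 against 265 to 275. In replicate 4 of ZT14, Prkcd and Tnnt1 of the thalamus were at 27.5 and 29.1 TPM against 6.97 to 8.10 and 8.93 to 11.8. Replicate 1 of ZT14 stood apart in Pmch as well, at 26.0 TPM against 0.549 to 4.70, and was left out only by itself, with 62 calls. Without the pair, a choice made after the values were seen, 54 genes were called (51 higher and 3 lower), and 48 of them were among the 101 (88.9% of the 54 and 47.5% of the 101).

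Transcripts of microglia were low at both times. The summed TPM of the 20 microglial markers was 36.7 to 104 at ZT2 and 53.8 to 141 at ZT14, against 788 to 950 and 782 to 979 in control mice. No marker was at 0 in all libraries of a group, and Gpr34 was the only one at 0 in any. Csf1r, the receptor that PLX5622 blocks, was at 3.15, 0.557, 0.344 and 3.80 TPM at ZT2 and at 8.97, 1.94, 9.41 and 1.19 TPM at ZT14, and C1qa of the complement system was at 0.961 to 7.81 and 3.29 to 13.1 TPM. These ranges overlap. None of the 19 markers tested was called by limma or edgeR or had an unadjusted p under 0.05, with a median log2 difference of 0.27, and Csf1r differed by 1.0 ± 0.54 (SE, adjusted p = 0.542). In bulk tissue fewer cells of a type and less RNA per cell cannot be told apart. The markers of neurons (summed TPM 3178 to 4255 at ZT2 and 3515 to 4263 at ZT14) and of cortical interneurons (1540 to 1961 and 1606 to 2150) were abundant in every library. The 8 striatal markers were present too, at 372 to 1009 and 464 to 994 TPM.

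Clock genes were called in both directions. Of the 10 clock repressors tested, 6 were higher at ZT14 and none lower (median log2 change 0.67), and of the 7 clock activators 1 was lower and none higher (median -0.02). Of the 4 PAR bZIP genes, which encode D-box factors, 2 were higher (median 0.51). Among all genes tested 0.638% were called higher and 0.0549% lower. The 3 lists were chosen with results of these data known. Counts for all 3 lists stayed the same when any single library or the pair above was left out, except that without replicate 3 of ZT2 Hlf was also called. With the 8 libraries alone in the fit Nr1d1 and Tef were not called, and Tef was not called after upper-quartile scaling.

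Arntl, the activator that closes the loop, was at 16.7, 13.8, 18.8 and 18.3 TPM at ZT2 and at 8.25, 8.17, 9.25 and 9.76 TPM at ZT14. Every ZT14 value was thus below every ZT2 value, and the log2 change was -0.85 ± 0.12 (SE, adjusted p = 9.1e-04). The call held in every alternative run. The other activators did not pass the test. Clock had a log2 difference of -0.09 ± 0.12 and Npas2 of -0.02 ± 0.14, and Rora and Rorb, which encode activators at ROR elements, differed by 0.25 ± 0.17 and 0.03 ± 0.10, none of which passed the test (adjusted p from 0.645 to 0.973).

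Among the repressors Ciart, which encodes an inhibitor of the CLOCK and ARNTL pair, had the largest change. It was at 4.86, 4.42, 5.47 and 5.84 TPM at ZT2 and at 20.6, 19.8, 20.9 and 17.1 TPM at ZT14, a log2 change of 1.75 ± 0.18 (adjusted p = 1.2e-05). Per1, whose product inhibits the same pair, was at 12.3, 12.3, 16.3 and 15.4 TPM and then at 33.1, 31.8, 35.6 and 32.6 TPM (1.19 ± 0.20, adjusted p = 0.003). In both genes the groups were far apart and the 4 mice of a group close together. Per3 was at 5.14 to 5.82 TPM at ZT2 and at 8.72 to 10.1 TPM at ZT14 (0.67 ± 0.10, adjusted p = 0.0013). Both REV-ERB genes were higher at ZT14. Nr1d1 was at 34.5 to 46.9 and 58.9 to 71.6 TPM (0.67 ± 0.11, adjusted p = 0.0026), and Nr1d2 at 28.5 to 31.5 and 46.4 to 53.2 TPM (0.69 ± 0.09, adjusted p = 4.4e-04). Bhlhe41, which encodes a repressor that binds E-boxes, was at 7.98 to 9.41 and 12 to 16 TPM (0.66 ± 0.10, adjusted p = 9.1e-04).

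The other 4 repressors did not pass the test, although all had positive differences. Per2 was at 5.09 to 6.80 TPM at ZT2 and at 17.7, 10.1, 10.6 and 9.96 TPM at ZT14, with replicate 1 far above the others (0.84 ± 0.21, adjusted p = 0.0767). Bhlhe40 differed by 0.55 ± 0.15 (adjusted p = 0.122), Cry2 by 0.35 ± 0.12 (0.280) and Cry1 by 0.28 ± 0.11 (0.360). Per2 and Bhlhe40 did not overlap between the times and were called by edgeR, whereas Cry1 and Cry2 overlapped and were not.

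Dbp, an output regulator of the clock, had the smallest p of all genes. It was at 38.8, 43.1, 45.0 and 43.9 TPM at ZT2 and at 141, 115, 130 and 119 TPM at ZT14, a 2.96-fold higher mean (log2 change 1.54 ± 0.10, adjusted p = 1.2e-08). Tef was at 118 to 142 TPM at ZT2 and at 178 to 201 TPM at ZT14 (0.53 ± 0.08, adjusted p = 0.0019). Hlf differed by 0.49 ± 0.13 (adjusted p = 0.0860) without overlap, and Nfil3, the repressor at D-boxes, by -0.34 ± 0.17 (adjusted p = 0.522).

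**Figure D2:**
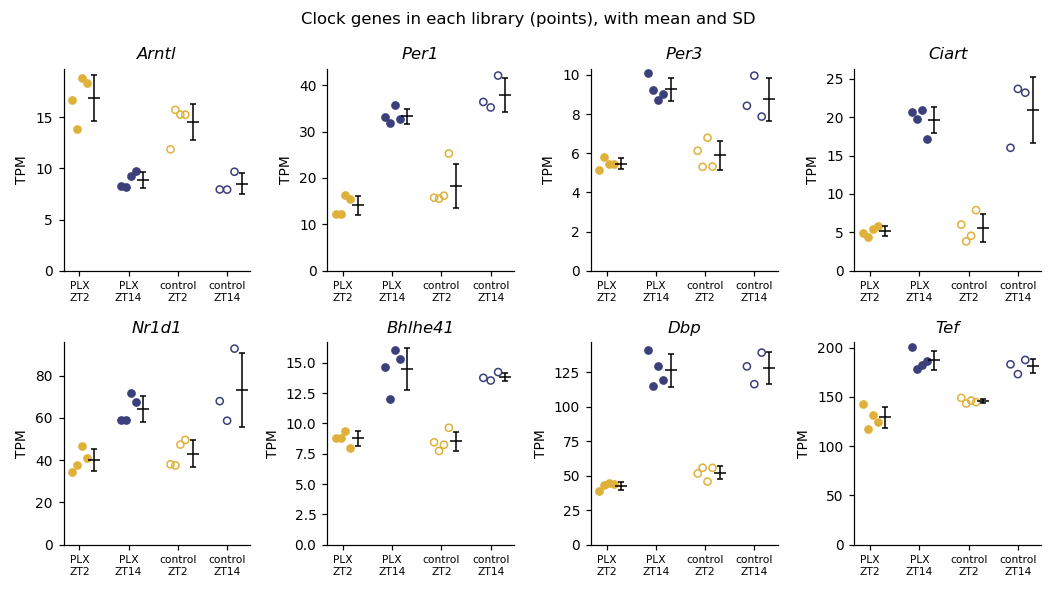
TPM of 8 clock genes (y axes, from 0) in each library at ZT2 (yellow) and ZT14 (dark blue) of PLX5622 mice (filled, n = 4 each) and control mice (open, n = 4 and 3), with the mean and SD beside the points. Arntl is lower at ZT14 and the other 7 genes are higher, with no overlap between the PLX5622 groups.

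Further genes tied to the clock were few. Usp2 encodes a deubiquitinase of clock proteins. It was the only one of 10 kinases and ligases of the clock to be called (0.60 ± 0.13, adjusted p = 0.0283). Its call was lost in 5 of the 8 fits that left out a library (adjusted p up to 0.116). These were the fits without replicate 1 or 2 of ZT2 or replicate 1, 3 or 4 of ZT14. The call was also lost with no filter on low values and with the mitochondrial share as a covariate. It was lost too with the 8 libraries alone in the fit and without the pair of libraries that stood apart (adjusted p up to 0.184). Rbm3, a cold-inducible RNA-binding protein, was at 96.6, 104, 109 and 109 TPM at ZT2 and at 196, 195, 209 and 212 TPM at ZT14, a 1.94-fold higher mean (0.95 ± 0.08, adjusted p = 1.0e-06). Its relative Cirbp had a difference of 0.36 ± 0.12 in the same direction (adjusted p = 0.273). None of the 15 heat shock genes was called by limma or edgeR, with 5 at an unadjusted p under 0.05 and a median of -0.02. DESeq2 called 4 lower (Chordc1, Hsf1, Hspe1 and Stip1) and limma with the mitochondrial share as a covariate 1, Hspa8. Over all genes 1552 of 14580 had an unadjusted p under 0.05. DESeq2 called 127 of 14433 lower, and the fit with the covariate 20 of 14580.

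A part of the genes known to respond to glucocorticoids was higher at ZT14. Of the 16 tested, 5 were called higher and none lower, and 10 had ZT14 values above all ZT2 values. Among all genes tested 0.638% were called higher and 5.84% were separated in this way. The median log2 change of the 16 was 0.48 against 0.09 for all genes. A positive difference was seen in 14 of the 16, against 10318 of all 14580 genes, and the lowest was -0.34. Per1 belongs to this list as well as to the clock. The genes for the receptors themselves were not called: Nr3c1, the glucocorticoid receptor, had a difference of 0.09 ± 0.15 (adjusted p = 0.859) and Nr3c2, the mineralocorticoid receptor, of 0.29 ± 0.12 (adjusted p = 0.359).

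Plin4, a protein of lipid droplets, was at 0.480, 0.631, 0.458 and 0.359 TPM at ZT2 and at 3.67, 3.56, 2.32 and 4.62 TPM at ZT14. The mean was 7.35-fold higher, and on the log2(TPM + 1) scale, which understates changes of genes at such low levels, the change was 1.59 ± 0.18 (adjusted p = 5.4e-05). Tsc22d3, which encodes the glucocorticoid-induced leucine zipper, was at 46.9, 57.8, 44.0 and 45.8 TPM and then at 106, 83.3, 90.1 and 111 TPM (0.99 ± 0.12, adjusted p = 9.0e-05). Fkbp5, a co-chaperone that lowers the affinity of the receptor for its hormone, was at 9.83, 9.07, 9.89 and 10.3 TPM and then at 17.1, 16.3, 19.2 and 23.6 TPM (0.88 ± 0.13, adjusted p = 0.0015). In all 3 genes the lowest ZT14 mouse was above the highest ZT2 mouse.

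Sgk1, a kinase induced by glucocorticoids that acts on ion transport, was at 20.1, 20.8, 20.6 and 25.6 TPM at ZT2 and at 54.2, 35.5, 49.0 and 48.9 TPM at ZT14 (1.06 ± 0.20, adjusted p = 0.0066). Without the pair of libraries that stood apart it was no longer called, and the other 4 were. The members that missed the threshold, with the examples chosen after their values were seen, included Zbtb16 (0.75 ± 0.19, adjusted p = 0.0768), a transcription factor, Klf9 (0.45 ± 0.12, adjusted p = 0.0945), also a transcription factor, and the metallothionein Mt2 (0.52 ± 0.13, adjusted p = 0.0664). Their ZT14 values lay above their ZT2 values in all mice, and edgeR called Zbtb16 and Klf9. The palindromic response element printed for Sgk1 was found in 1 of the 14064 promoter windows of the genes tested.

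**Figure D3:**
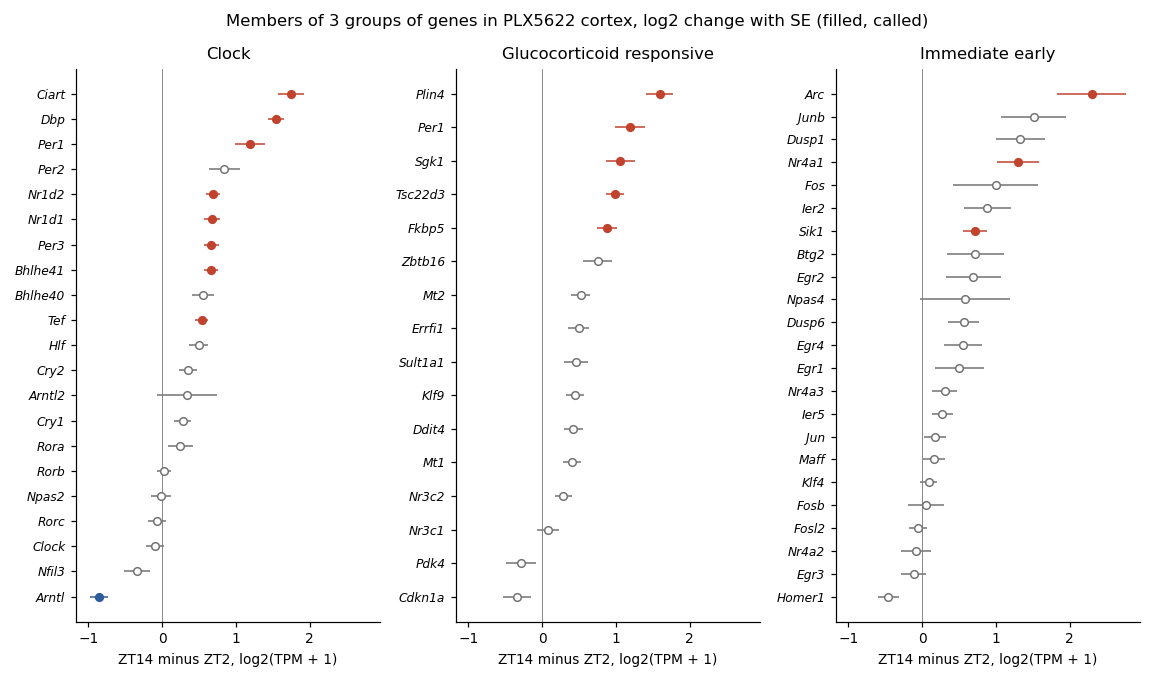
Log2 change from ZT2 to ZT14 in PLX5622 cortex (x axes, log2(TPM + 1), bars show the SE of the limma fit) for each member tested of the clock, glucocorticoid-responsive and immediate early lists. Filled points were called, red as higher and blue as lower. Of the clock genes 8 are filled red and Arntl blue, of the glucocorticoid-responsive genes 5 are filled and of the immediate early genes 3.

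Immediate early genes, which neurons transcribe within minutes of activity, were in part higher at ZT14 and varied between mice at both times. Of the 23 tested, 3 were called higher and none lower, and 7 had ZT14 values above all ZT2 values. Among all genes tested 0.638% were called higher and 5.84% were separated in this way. The median log2 change of the 23 was 0.56 against 0.09 for all genes. Arc, whose product acts at active synapses, had the largest called change of all genes: it was at 37.8, 21.8, 21.2 and 59.0 TPM at ZT2 and at 167, 159, 125 and 202 TPM at ZT14, a 4.67-fold higher mean (2.30 ± 0.47, adjusted p = 0.0184). Nr4a1, an orphan nuclear receptor, was at 20.6, 15.2, 19.0 and 32.0 and then at 48.9, 49.6, 53.7 and 60.3 TPM (1.30 ± 0.29, adjusted p = 0.0316). Sik1, a kinase induced by cAMP, was at 2.47 to 3.12 and 4.97 to 5.81 TPM (0.72 ± 0.16, adjusted p = 0.0332).

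These 3 calls were lost in several or all of the 8 fits without a library. None was made with the mitochondrial share as a covariate or without the pair of libraries that stood apart. The call of Arc was lost without replicate 2 or 3 of ZT2 or without replicate 1 or 4 of ZT14 (adjusted p up to 0.0809), that of Nr4a1 in 7 of 8 such fits, all but the one without replicate 4 of ZT2 (up to 0.116), and that of Sik1 in all 8 (0.0578 to 0.123). All 3 kept their direction in every such fit. The genes Junb, Fos and Homer1 were chosen after their values were seen. Replicate 4 of ZT2 had the highest value of its group for Arc, Nr4a1, Dusp1 (18.6 TPM against 8.60 to 10.3) and Junb (45.1 against 14.4 to 18.5). Dusp1, a phosphatase of the MAP kinases, had a difference of 1.33 ± 0.33 (adjusted p = 0.0685), and Junb and Fos, subunits of AP-1, of 1.51 ± 0.44 (adjusted p = 0.147) and 1.0 ± 0.57 (adjusted p = 0.569). Homer1 had the lowest difference in the list, -0.46 ± 0.15 (adjusted p = 0.199), and edgeR called it lower.

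**Figure D4:**
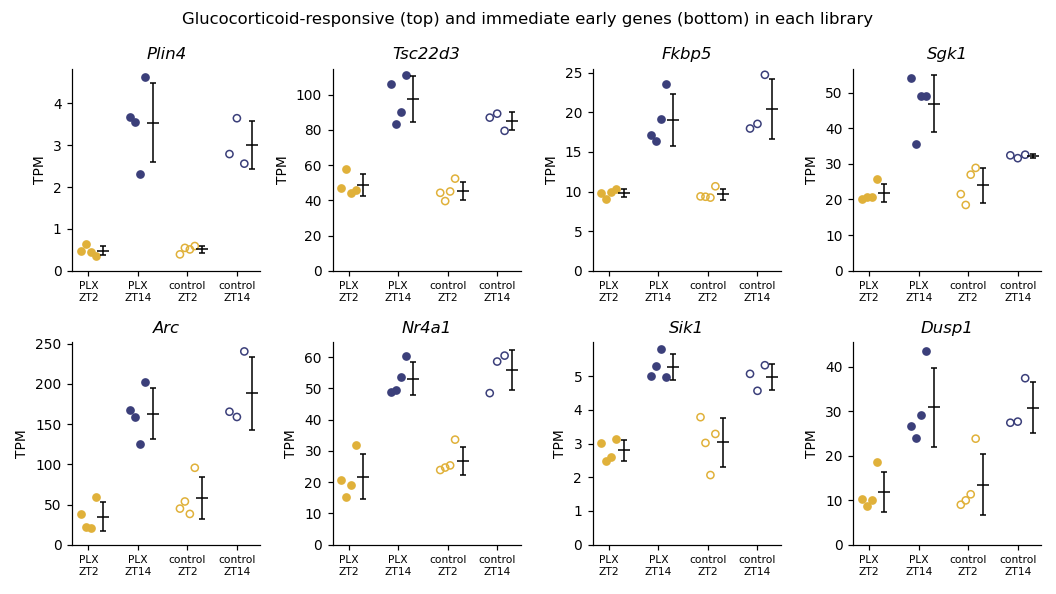
TPM of 4 glucocorticoid-responsive genes (top row) and 4 immediate early genes (bottom row) in each library (y axes, from 0) at ZT2 (yellow) and ZT14 (dark blue) of PLX5622 mice (filled) and control mice (open), with the mean and SD beside the points. In all 8 genes the PLX5622 values at ZT14 lie above those at ZT2, with Dusp1 the gene that missed the threshold.

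At the blood vessels the markers went both ways. Of the 11 endothelial markers, 2 were higher at ZT14 and 1 lower, against 0.638% and 0.0549% of all genes tested. The median log2 change of the markers was -9.1e-04. Slc2a1, the glucose transporter of the blood-brain barrier, was at 45.4, 46.4, 35.4 and 41.5 TPM at ZT2 and at 70.9, 60.8, 76.7 and 78.4 TPM at ZT14 (0.75 ± 0.13, adjusted p = 0.0032), and Ly6c1, a surface antigen, at 74.3 to 98.3 and 118 to 140 TPM (0.55 ± 0.11, adjusted p = 0.0126). Cldn5, the claudin of the endothelial tight junctions, was at 90.0, 87.2, 86.0 and 75.3 TPM and then at 53.7, 45.9, 64.4 and 67.7 TPM (-0.55 ± 0.11, adjusted p = 0.0126). The calls of Cldn5 and Ly6c1 were each lost in 2 of the 8 fits without a library: Cldn5 without replicate 1 of ZT2 or of ZT14 (adjusted p up to 0.0599), Ly6c1 without replicate 4 of ZT2 or 3 of ZT14 (up to 0.0672). Ly6c1 was also not called after median-of-ratios scaling (0.0783), after upper-quartile scaling, with edgeR, without the pair of libraries that stood apart or with the 8 libraries alone in the fit, and Cldn5 not with the 8 alone (0.194). The summed TPM of the markers was 337 to 398 at ZT2 and 395 to 475 at ZT14.

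Besides Arntl and Cldn5, 6 genes were lower at ZT14. Rap1a, a small GTPase, was at 49.4, 53.7, 51.7 and 46.4 TPM and then at 32.1, 36.2, 33.0 and 36.7 TPM (-0.53 ± 0.10, adjusted p = 0.0081). Dtl, a substrate receptor of the CUL4 ubiquitin ligase, was at 3.10 to 4.06 and 2.0 to 2.09 TPM (-0.61 ± 0.11, adjusted p = 0.0037). The groups did not overlap in either gene. Dtl was called in every alternative, and Rap1a not with edgeR (0.116), with DESeq2, without the pair of libraries that stood apart or with the 8 libraries alone. The remaining 4 were Dlx1as (-0.77 ± 0.18, adjusted p = 0.0421), a transcript antisense to Dlx1 whose reads cannot be told apart from those of its partner where counting ignores strand, Sdf2l1 (-0.58 ± 0.13, adjusted p = 0.0356), a partner of chaperones in the endoplasmic reticulum, Zfr2 (-0.55 ± 0.13, adjusted p = 0.0421) and the unclassified Gm21955 (-0.45 ± 0.10, adjusted p = 0.0455). All 4 lost the call in 6 or 7 of the 8 fits without a library, Dlx1as and Gm21955 in every one but that without replicate 1 or replicate 2 of ZT2, respectively, Zfr2 in every one but that without replicate 1 of ZT14 and Sdf2l1 in all but those without replicate 3 of ZT2 or 4 of ZT14 (adjusted p up to 0.156). None of the 4 was called without the pair of libraries that stood apart, with the 8 libraries alone or with no filter on low values, and edgeR called 5 of the 8 lower genes, not Dlx1as, Gm21955 or Rap1a.

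Further strong changes lay outside the lists. Csrnp1, a nuclear protein induced by AXIN1, was at 4.08, 5.26, 4.69 and 6.87 TPM at ZT2 and at 18.7, 16.8, 21.1 and 11.3 TPM at ZT14 (1.52 ± 0.25, adjusted p = 0.0026). Xdh, the xanthine dehydrogenase of purine breakdown, was at 1.5, 1.49, 1.61 and 1.20 and then at 6.21, 4.04, 4.17 and 4.55 TPM (1.22 ± 0.15, adjusted p = 9.0e-05). Fmo2, a flavin-containing monooxygenase, was at 0.393 to 1.59 and 2.87 to 4.02 TPM (1.26 ± 0.20, adjusted p = 0.0016), and Tcap, a titin-binding protein, at 1.76 to 2.90 and 6.23 to 8.05 TPM (1.21 ± 0.19, adjusted p = 0.0019). None of these 4 genes overlapped between the times. Klf15, a transcription factor of fasting metabolism, was the only one of the 15 FOXO and fasting genes to be called (0.64 ± 0.11, adjusted p = 0.0045, not called with the 8 libraries alone in the fit). The amino acid transporter Slc7a5 was the only one of 12 ATF4 targets (0.67 ± 0.13, adjusted p = 0.0108). Slc7a5 was not called without replicate 3 of ZT14 (0.0668) or without the pair of libraries that stood apart (0.134). Of all genes tested 0.638% were called higher.

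In 28 of the 39 lists limma called no gene, among 413 genes tested, with list medians of -0.12 to 0.70. The median at the top of that range was that of the 5 blood markers, whose summed TPM was 215 to 2300 at ZT2 and 307 to 2285 at ZT14. Limma called no gene among the 10 genes of perineuronal nets (median 0.19), 17 matrix proteases and inhibitors (0.06), 23 of cholesterol synthesis (0.09), 10 AMPA and NMDA receptor subunits (0.13), 12 GABA-A receptor subunits (0.08) or 16 postsynaptic scaffold genes (0.10), nor among 79 nuclear genes of the respiratory chain (0.01) or 78 ribosomal protein genes (0.06). Of these 413 genes, 42 had an unadjusted p under 0.05, against 1552 of all 14580 genes tested. In the 28 lists edgeR called 3 genes lower, the GABA-A receptor gene Gabra2 and the ATP synthase genes Atp5k and Atp5mpl, and none higher. DESeq2 called 13 lower, these 3 among them, and 1 higher, Timp3, an inhibitor of matrix proteases. Over all genes edgeR called 58 lower and 141 higher of 14442, and DESeq2 127 lower and 224 higher of 14433. Of the 16 lists of cell type and region markers, that of endothelial cells was the only one with a call, and the median differences were 0.09 for neurons, 0.09 for astrocytes and 0.11 for oligodendrocytes.

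The same 12 h apart did not give as many calls at other hours of the depleted mice. ZT18 against ZT6 gave 0 calls with limma (0%), with 1094 genes at an unadjusted p under 0.05, against 1552 for ZT14 and ZT2. ZT22 against ZT10 gave 17 (0.117%), 4 higher and 13 lower, and 11 genes were shared with the 101 (64.7% of the 17 and 10.9% of the 101). Over the 6 times, 92 of the 93 higher genes had their highest mean at ZT14 and 52 their lowest at ZT2, which follows in part from their choice. Dbp and Ciart were almost as high at ZT10, with means of 119 ± 13 and 19.0 ± 4.12 TPM (SD, n = 4) against 126 ± 11.8 and 19.6 ± 1.72 TPM at ZT14. Plin4 and Arc stood out at ZT14 alone among the means, with 0.943 ± 0.0865 and 42.5 ± 28.3 TPM at ZT10, 3.54 ± 0.942 and 163 ± 31.9 TPM at ZT14 and 1.18 ± 0.635 and 52.2 ± 27.6 TPM at ZT18.

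To see whether the step from ZT2 to ZT14 was particular to the depleted cortex, it was compared with that of control mice, which share no library with it. Of the 93 higher genes, 89 had a positive change in control mice (median 0.50), as had 7 of the 8 lower genes a negative one, against 67.5% of all genes with the same sign in both. The larger median in PLX5622 mice, 0.67, is that of the mice in which the genes were chosen. In control mice 28 genes were called (0.192%), and 22 genes were called in both (78.6% of the 28 and 21.8% of the 101). The difference between the diets passed the test in no gene, by limma, edgeR or DESeq2, with 511 genes at an unadjusted p under 0.05 and a smallest adjusted p of 0.737.

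Single genes give the sizes. Dbp had log2 changes of 1.54 ± 0.10 in PLX5622 and 1.28 ± 0.12 in control mice, Ciart of 1.75 ± 0.18 and 1.76 ± 0.21, Arntl of -0.85 ± 0.12 and -0.70 ± 0.11, and Fkbp5 of 0.88 ± 0.13 and 0.99 ± 0.11. The differences between the diets were 0.26 ± 0.16, -0.01 ± 0.28, -0.15 ± 0.16 and -0.11 ± 0.17 (SE), with unadjusted interaction p from 0.106 to 0.965. Sgk1 was among the called genes whose changes differed most between the diets, and was at 21.5, 18.5, 27.0 and 28.9 TPM in control mice at ZT2 and at 32.4, 31.6 and 32.6 TPM at ZT14. Its change was 0.43 ± 0.20 there against 1.06 ± 0.20, and the interaction had an unadjusted p of 0.0338 and missed the adjusted threshold. The death receptor gene Fas (0.86 in PLX5622 and -0.12 in control mice), Fam205c (0.64 and -0.22), Gdf10 (0.57 and -0.07), which encodes a growth factor of the BMP family, and Dlx1as (-0.77 and 0.29) missed it too, with unadjusted p of 0.0043, 0.0029, 0.0027 and 0.0026. The PLX5622 calls of Fas, Fam205c and Gdf10 were lost in 7, 6 and 6 of the 8 fits without a library (adjusted p up to 0.156, 0.115 and 0.116), Fas in all but the fit without replicate 4 of ZT14. None of these 3 was called after median-of-ratios scaling (adjusted p of 0.0800, 0.0632 and 0.0586). Rap1a had a log2 change of -0.01 ± 0.14 in control mice against -0.53 ± 0.10, with an unadjusted interaction p of 0.0034.

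**Figure D5:**
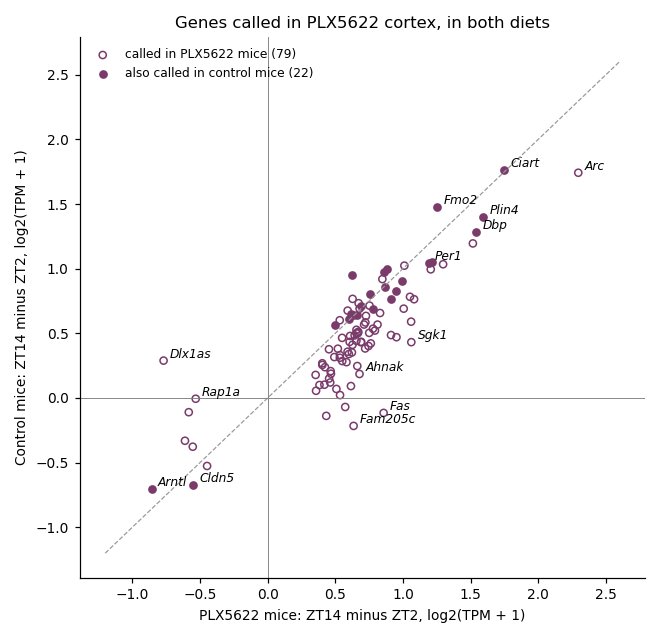
Log2 change from ZT2 to ZT14 on the log2(TPM + 1) scale in PLX5622 mice (x axis) and control mice (y axis) for the 101 genes called in PLX5622 mice, with the line of equal change dashed. Filled points mark the 22 genes also called in control mice, and 96 of the 101 points lie in the quadrants of equal sign.

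The promoters of the called genes were searched for the motifs of the clock and hormone pathways on both strands, and no motif contains another. Windows were found by symbol for 80 of the 101 genes. E-boxes were in the windows of 15 of the 75 higher genes with a window (20%) and of 1 of the 5 lower genes (20%), Zfr2. They were in 11.6% of the genes tested and in 8.09% of all 27025 genes with a window. The higher genes with an E-box included, as examples chosen after the search, Bhlhe41, Coq10b, Fkbp5, Klf15 and Tef besides those printed above, and Klf15 had 3. D-boxes (TTATGTAA or TTACGTAA) were in Per3 and Coq10b alone of the higher genes, against 0.883% of the genes tested and 1.23% of all genes with a window. The window of Dbp held none of the motifs. The ROR element was in 1 of the 5 lower genes, Arntl, and in none of the 75 higher genes. It was in 2.08% of the genes tested and in 2.97% of all genes with a window. The cAMP response element (TGACGTCA) was in Tmc7 of the higher and in Dtl and Zfr2 of the lower genes. It was in 3.53% of the genes tested and in 2.03% of all genes with a window. A match of letters is a description of the window, and no binding was measured.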

How the data were processed

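Cortex RNA of 47 mice was sequenced, 1 library per mouse. Per the study's methods, the authors aligned paired reads with STAR to GRCm38.p6 and quantified TPM with Salmon, and the submitters' notes also name featureCounts. The deposited tables hold TPM and whole-number counts per gene, and columns were assigned by name. Whether counting used strand is not given in the sources used here. The main test was limma (3.58.1) on log2(TPM + 1) over the 24 PLX5622 libraries with the group as factor, for the 14580 genes whose mean of the 47 libraries reached 1 TPM, with Benjamini-Hochberg adjustment over all of them. Control mice (23 libraries) were fitted alike, and the interaction over all 47. P-values are two-sided. Those of limma set the difference of the groups against the spread between mice of the same group, taken over all libraries in the fit. EdgeR (4.0.16) and DESeq2 (1.42.0) on the deposited counts were alternatives. In simulated counts with 200 of 14440 genes changed, the limma test recovered 50% of log2 changes of 0.5 and 93% of those of 1, and 5.92% of its calls were false. The simulation raised and lowered equal numbers of genes and shifted no others. The data had a shifted median and mostly higher calls, so these rates may not hold for them. Same-numbered libraries of ZT2 and ZT14 did not all deviate together, and the fit was not blocked.

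The 10 largest changes and the 5 smallest p in each direction, up to 4 genes of each list, the clock genes, and the largest differences between diets were named. The members and the 39 gene lists were chosen with earlier results of these data known. Other genes are said to have been chosen after their values were seen. The values of 1 library that stood apart in 1 gene are not reported here.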

Additional observations from a re-analysis of the deposited data

Results flagged for a closer look

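In 24 of the 360 groups of 4 libraries examined for the named genes, 1 library lay far from the other 3 by Dixon's test, where chance gives about 18. In PLX5622 mice at ZT2, replicate 2 gave the most: Arrdc2 at 7.86 TPM (others 4.32 to 4.44), Cck at 707 (858 to 881), Olig2 at 25.6 (17.3 to 17.6), Ppp1r1b at 116 (265 to 275), Ramp3 at 26.9 (14.3 to 16), Prkcd at 21.1 (6.85 to 7.38), Pmch at 66.3 (1.69 to 7.37) and the globin gene Hba-a1 at 366 (37.9 to 93.4). At ZT14, replicate 4 stood apart in Fgf2 at 4.99 TPM (others 3.07 to 3.33), C1ql2 at 18.2 (4.85 to 6.92), Tnnt1 at 29.1 (8.93 to 11.8), Ramp3 at 28.1 (16.3 to 16.7) and Prkcd at 27.5 (6.97 to 8.10).

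The remaining libraries had fewer. Replicate 1 of ZT2 had Col4a1 at 9.37 TPM (others 6.99 to 7.31), Arntl2 at 9.35 (1.06 to 1.99) and Nfil3 at 4.63 (6.41 to 6.74), replicate 3 had Cry1 at 13 (11 to 11.3), and replicate 4 had Dusp1 at 18.6 (8.60 to 10.3) and Sgk1 at 25.6 (20.1 to 20.8). Replicate 1 of ZT14 had Per2 at 17.7 TPM (others 9.96 to 10.6) and Pmch at 26.0 (0.549 to 4.70), replicate 2 had Olig1 at 85.0 (111 to 114) and replicate 3 had Vasp at 9.65 (7.16 to 7.51).

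In 2 named genes the ZT14 values lay wholly below those of ZT2 in PLX5622 mice and wholly above them in control mice. Ndufab1, a subunit of respiratory complex I, was at 186, 238, 220 and 168 TPM at ZT2 and at 120, 134, 134 and 154 TPM at ZT14 in PLX5622 mice, and at 116 to 141 and 142 to 174 TPM in control mice. The changes differed by -0.89 on the log2 scale (limma interaction, adjusted p = 0.737). Pomp, an assembly factor of the proteasome, was at 189 to 232 and 128 to 182 TPM in PLX5622 mice and at 147 to 167 and 167 to 226 TPM in control mice, a difference of -0.75 (adjusted p = 0.737). Neither passed the adjusted threshold. Of all genes tested, 4 were separated in opposite directions in the diets and 268 in the same direction.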

How the results depend on the processing

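Each of the 101 genes kept its direction in every alternative that tested it. The count of 101 calls (93 higher, 8 lower) became 199 with edgeR (141 and 58), 351 with DESeq2 (224 and 127), 49 with the 8 compared libraries alone (46 and 3), 54 without the pair of libraries that stood apart (51 and 3) and 52 at an adjusted p of 0.01 (49 and 3). Leaving out 1 library gave 60 to 107 calls, 56 to 101 higher and 4 to 7 lower. The lower genes became 31 after median-of-ratios scaling, 29 after upper-quartile scaling (69.5% of calls higher) and 20 with the mitochondrial share as a covariate (75.6% higher). In control mice the 28 calls became 14 with no filter, 96 with edgeR, 255 with DESeq2, 3 with the compared libraries alone, 44 with all 47 libraries in the fit, 16 with the mitochondrial covariate, 8 at 0.01, and 6 to 67 without 1 library. The interaction gave 0 to 1 calls without 1 library. The cause of these shifts was not tested. With the replicate number as a block, 143 genes were called (132 and 11) in PLX5622 mice and 405 in control mice. Same-numbered libraries of ZT2 and ZT14 correlated at 0.185, -0.103, 0.133 and 0.026 in PLX5622 mice and at 0.0854, 0.192 and 0.0195 in control mice. The sources used here do not say what the number stands for, and whether same-numbered mice shared a batch was not tested. The block raised the immediate early calls from 3 to 9 of 23. Low TPM rests on few reads, so changes near 1 TPM are less precise.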

Other observations

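The following called genes were chosen after their values were seen. Of the 8 Frizzled receptors of WNT ligands tested, 3 were higher at ZT14 in the depleted cortex, where 0.638% of all genes were, and none lower, with a median log2 difference of 0.39. The family was picked with these calls in view, so the 0.638% is no test of it. Fzd2 was at 6.25 to 7.21 TPM at ZT2 and at 10.6 to 13.4 TPM at ZT14 (log2 change 0.72, adjusted p = 0.0019), Fzd1 at 3.72 to 5.52 and 6.23 to 9.26 TPM (0.71, adjusted p = 0.0130) and Fzd4 at 2.33 to 2.89 and 3.95 to 4.94 TPM (0.59, adjusted p = 0.0145). In none of these did the times overlap. The calls of Fzd1 (without replicate 3 of ZT2 or replicate 3 or 4 of ZT14, adjusted p up to 0.0792) and Fzd4 (without replicate 4 of ZT2 or replicate 1 or 4 of ZT14, up to 0.0762) were lost in 3 of the 8 fits without a library.

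Csf1, a ligand of the receptor that PLX5622 blocks, was at 5.60, 7.60, 5.92 and 6.50 TPM at ZT2 and at 8.01, 8.94, 9.65 and 10.2 TPM at ZT14 (0.47, adjusted p = 0.0463), and the other ligand, Il34, had a difference of -0.10 (adjusted p = 0.883). Mertk, a receptor of phagocytosis that astrocytes and microglia share, was at 14.4, 11.6, 11.7 and 12.7 and then at 24.6, 21.5, 17.3 and 20.6 TPM (0.69, adjusted p = 0.0038). Both genes were higher in every ZT14 mouse than in any ZT2 mouse. Mfsd2a, the lipid transporter of the blood-brain barrier, was at 11.5 to 16.8 and 25.5 to 27.0 TPM (0.79, adjusted p = 0.0056), and Atp10a, a lipid flippase, at 2.09 to 2.88 and 4.85 to 6.54 TPM (0.91, adjusted p = 1.4e-04). The receptor genes Hrh3 for histamine, at 37.8 to 52.9 and 77.2 to 88.8 TPM (0.81, adjusted p = 1.4e-04), and Chrm4 for acetylcholine, at 9.63 to 15.7 and 17.3 to 23.6 TPM (0.73, adjusted p = 0.0428), were higher too. The call of Csf1 was lost in 6 of the 8 fits without a library, all but those without replicate 2 of ZT2 or 1 of ZT14 (adjusted p up to 0.174), and that of Chrm4 in 5, without replicate 1 or 2 of ZT2 or 1, 2 or 3 of ZT14 (up to 0.165). Of 13 other alternatives Csf1 was not called in 8, median-of-ratios scaling among them (0.0728), Chrm4 not in 7, edgeR among them (0.0670), and Mertk not in 3 (up to 0.0674).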
